A study of Mus musculus with 8 samples.

Results

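The deposited regions were searched for genes of the Rab, Arf and Arl families, the small GTPases that direct vesicle traffic. A region was taken when the name of its gene began with Rab, Arf or Arl followed directly by a digit. This gave 75 of the 11251 regions in the table, for 70 of the 9757 genes named there. At the transcription start site (TSS, within 5000 bp) lay 71 of them, and the other 4 were distal. The rule read gene names only. It held 56 GTPase genes, 13 genes of binding partners and regulators that are not GTPases themselves, and Rab10os, an antisense RNA of Rab10.

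The samples were epithelial cells of the terminal ileum, a mix of the cell types of that lining, in which acetylation of histone H3 at lysine 9 (H3K9ac) was measured by chromatin immunoprecipitation and sequencing. All mice were wild type and C57Bl/6. The treated mice had 150 mM butyrate for 7 days, and the controls had vehicle. Each group had 3 H3K9ac libraries, S1 to S3 for vehicle and S4 to S6 for butyrate, and 1 input library that was not analysed here. The route of butyrate, the vehicle solution, and the age and sex of the mice were not given in the sources used here. Whether the libraries of a group are from different mice is not stated, so p-values measure the spread between these libraries, which may be technical.

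Small GTPases of these families are switches that bind membranes when loaded with GTP and leave them after GTP is hydrolysed. Rab proteins give each compartment its identity and recruit tethers and motors, Arf proteins recruit coats such as COPI and clathrin adaptors, and the Arf-like (Arl) proteins act at the Golgi, lysosomes, mitochondria and cilia. In enterocytes, Rab8a and Rab11a carry brush border proteins to the apical surface. Butyrate is a bacterial fatty acid that inhibits histone deacetylases, and H3K9ac marks active promoters and enhancers.

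Sequence context is shown first for the members that the results turn on. RefSeq promoters (GRCm38.p6, 250 bases before to 50 after the start) were matched by symbol for 60 of the 70 genes, and 54 had that start inside a region of the table. The promoters of Arf5 (chr6:28423354-28423653, plus strand), whose region had the smallest p of all TSS members, and of its relative Arf4 (chr14:26637884-26638183, plus strand) are given with GGGCGG, the GC box, in capitals. The promoter of Arl4d (chr11:101665291-101665590, plus strand) has the CRE motif TGACGTCA in capitals. The fourth sequence comes from the upstream region named for Arl4d (chr11:101658138-101658267, plus strand), with the first bases of the U2 small nuclear RNA gene Rnu2-10 in capitals.
Arf5: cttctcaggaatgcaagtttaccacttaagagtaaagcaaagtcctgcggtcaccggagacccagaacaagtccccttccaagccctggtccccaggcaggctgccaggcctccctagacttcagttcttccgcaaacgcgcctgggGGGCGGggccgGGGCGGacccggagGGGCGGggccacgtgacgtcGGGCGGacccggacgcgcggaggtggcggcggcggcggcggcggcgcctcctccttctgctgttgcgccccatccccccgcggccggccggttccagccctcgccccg
Arf4: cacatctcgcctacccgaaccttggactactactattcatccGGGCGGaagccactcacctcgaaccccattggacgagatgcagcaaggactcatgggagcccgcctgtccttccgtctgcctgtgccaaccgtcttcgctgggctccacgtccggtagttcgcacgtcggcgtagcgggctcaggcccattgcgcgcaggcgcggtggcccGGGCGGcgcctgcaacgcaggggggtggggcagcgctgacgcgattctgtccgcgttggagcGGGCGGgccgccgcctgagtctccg
Arl4d: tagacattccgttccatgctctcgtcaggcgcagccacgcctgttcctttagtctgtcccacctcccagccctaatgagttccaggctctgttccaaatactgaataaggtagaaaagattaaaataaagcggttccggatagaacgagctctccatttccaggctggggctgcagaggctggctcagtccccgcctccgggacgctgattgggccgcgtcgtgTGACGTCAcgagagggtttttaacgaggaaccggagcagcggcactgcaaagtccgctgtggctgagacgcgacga
Arl4d upstream region: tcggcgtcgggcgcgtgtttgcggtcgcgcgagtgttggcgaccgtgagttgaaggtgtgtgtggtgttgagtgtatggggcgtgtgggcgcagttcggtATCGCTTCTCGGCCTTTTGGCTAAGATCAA

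The GC box, the site of Sp and Klf factors, occurred 4 times in the Arf5 promoter, 3 times in that of Arf4 and not in the Arl4d window. On either strand, at least 1 GC box was found in 42 of the 54 member promoters (77.8%), beside 67.6% of the 7310 promoters with a start in a region and 35.9% of all 27025. TGACGTCA, which CREB-type factors bind, was in 4 promoters (7.41%, beside 3.87% and 1.88%), those of Arl4d, Arl5b, Rab25 and Rab5a. TCACGTGA, the core of the CLEAR element of lysosomal genes, was also in 4 (7.41%, beside 2.16% and 1.01%). These were 2 early endosomal Rab genes, Rab24 of autophagy, and Arl2. Their windows are printed with the motif in capitals, for Arl2 at chr19:6141189-6141216 on the minus strand, Rab21 at chr10:115315605-115315632 on the minus strand, Rab24 at chr13:55321962-55321989 on the minus strand and Rab5a at chr17:53479128-53479155 on the plus strand.
Arl2: actcctgtggTCACGTGAcaacgagggc
Rab21: cccaccgcggTCACGTGAcgaggggtgt
Rab24: ggcgcccgcgTCACGTGAccgggcgtcc
Rab5a: cccggggatgTCACGTGActtcggcccc

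Of the 4 other motifs searched on both strands, CCGGAAG (ETS) was in 10 member promoters (18.5%, beside 21.2% of promoters in regions), AAGATGGC (YY1) in 5 (9.26%, beside 5.27%), CGCATGCG (NRF1) in 2 (3.70%, beside 4.41%) and CCACGTCA (UPRE-type) in 1, that of Arf1 (1.85%, beside 0.793%). None of the 7 motifs contains another. A match is a description of the letters in these windows only.

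The mouse annotation (GENCODE M21) lists 85 GTPase genes with such names, and 56 of them had a region named for them. By role, all 6 Arf genes and all 11 Rab genes of recycling and apical transport had one. Among the early endosomal Rab genes the count was 6 of 8, among those of the endoplasmic reticulum (ER) and Golgi 10 of 16, and among those of late endosomes and lysosomes 4 of 9. Of the 8 Rab genes of regulated secretion, Rab27a and Rab27b had a region, while Rab3a, Rab3b, Rab3c, Rab3d, Rab26 and Rab37 had none. Of the Arl genes, 14 of 20 had one. The start of Rab6a, a Golgi Rab, lay under a region named for its neighbour Mrpl48 (6.07 ± 0.475 RPKM in vehicle and 6.26 ± 0.356 with butyrate, mean ± SD, n = 3). The other 28 genes without a member region had no region over a start. How the regions were called was not given in the sources used here, so a gene without one is not shown to lack acetylation.

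Levels are given as RPKM, reads per kilobase of region scaled to library depth, which allows comparison between regions of different length. The TSS members had a median of 3.80 RPKM and 160 reads per library, beside 3.30 RPKM and 112 reads over all TSS regions passing the filter. Their median length was 1809 bp, beside 1566 bp, at a nearly equal GC content (53.1% and 53.2%). The broadest were those of Arf6, an Arf of the plasma membrane and endosomes (6747 bp), and Rab1a, a Rab of ER to Golgi transport (6184 bp). Of the 71 TSS members, 61 lay over a GENCODE start of their own protein-coding gene. The regions of Arl1, Arl2, Arl10, Rab15, Rab27a, Rab27b, Rab3il1 and Rab11fip3 did not, and Rab10os lay over its own non-coding start. Among the members, 3 also covered the start of another protein-coding gene (Gm9887 with Arf6, Nsun6 with Arl5b and Tox4 with Rab2b). Some held the start of a non-coding gene, such as Gm17251 with Rab11b and 1110006O24Rik with Rab35, and the mark does not tell their share apart.

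**Figure D1:**
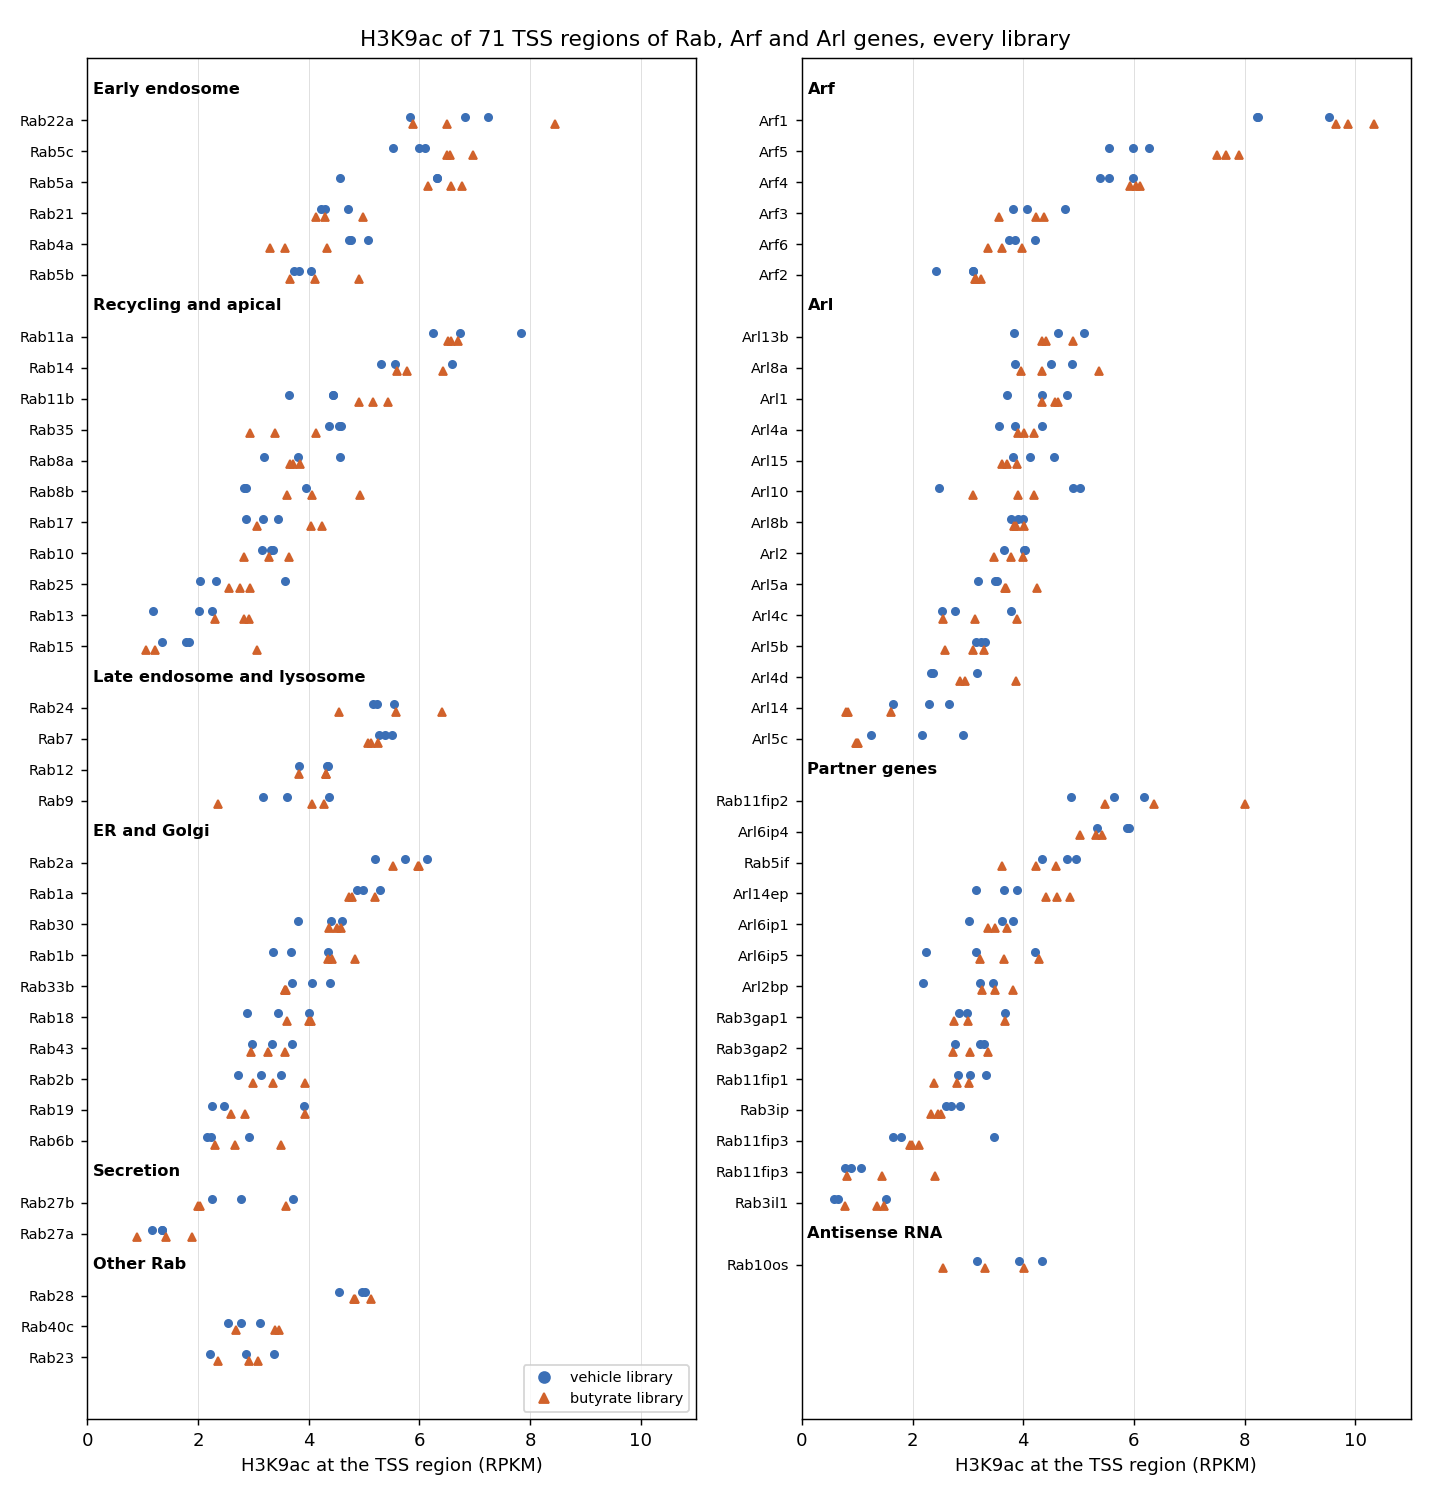
H3K9ac at the 71 TSS regions, in RPKM on the horizontal axis, with genes grouped by role. Circles are the 3 vehicle libraries and triangles the 3 butyrate libraries of each region, and Arf1 lies highest, between 8.22 and 10.3 RPKM.

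Arf1, which recruits the COPI coat at the Golgi, carried the densest acetylation of the family and ranked 25 among all 11251 regions. Its region (chr11:59225311-59228813) had 9.53, 8.24 and 8.22 RPKM in S1 to S3 and 9.87, 10.3 and 9.65 in S4 to S6. Next came Arf5, Rab22a, Rab11a, Rab5c and Rab5a, and these 5 neighbours in the order overlapped in their library values. Rab22a, which sorts cargo at early endosomes, had 5.84, 6.83 and 7.25 RPKM in vehicle and 5.88, 6.50 and 8.45 with butyrate. Rab11a, the Rab of recycling endosomes, had 6.74, 7.84 and 6.25 RPKM in vehicle and 6.57, 6.70 and 6.52 with butyrate. The groups overlapped at both. At the low end of the TSS members, Rab3il1, an exchange factor named for Rab3, had 0.584, 0.650 and 1.52 RPKM in vehicle and 1.36, 1.49 and 0.773 with butyrate. A short region of Rab11fip3, a Rab11 effector, had 1.07, 0.776 and 0.893 RPKM in vehicle and 1.46, 2.41 and 0.820 with butyrate. Rab27a, a Rab of granule docking, had 1.16, 1.34 and 1.35 RPKM in vehicle and 0.901, 1.90 and 1.42 with butyrate. These 3 TSS members rested on a mean of 19, 16.7 and 14 reads per library, and their groups overlapped. None of these 3 regions lay over a GENCODE start of its own gene.

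The comparison asked how H3K9ac at these genes differed between butyrate and vehicle. By limma on the log2(RPKM + 1) scale no member had an adjusted p under 0.05, and neither did any other of the 10529 regions tested (0.0%). The smallest adjusted p was 0.486. At an unadjusted p under 0.05 stood 7 members higher with butyrate and 4 lower. These were 9.59% and 5.48% of the 73 members that passed the filter of a mean of 1 RPKM, beside 3.35% and 3.91% of all tested regions. By voom on the recovered reads (regions with at least 25 mean reads), 1 of 66 members passed, an upstream region of Arl4d, beside 0.0995% of all regions. In the authors' deposited table, at their FDR of 0.1, 2 members were higher, beside 0.0978% of all regions in that direction: the Arl4d upstream region (log2 fold change 0.71, FDR 0.00528) and the TSS region of Arf5 (0.38, FDR 0.0539). The authors' calls rest on the same 6 libraries and are no independent evidence.

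In 9 of the 73 members every butyrate library lay above every vehicle library (12.3%, beside 6.11% of all tested regions), and in 7 every one lay below (9.59%, beside 6.85%). The 9 were Arf1, Arf2, Arf5, Arl5a, Arl14ep, Rab5c, Rab11b, Rab13 and the upstream region of Arl4d. The 7 were Arl14, Arl5c, Rab4a, Rab35, Rab33b, Rab7 and Rab3ip. Several of these gaps were narrow, such as 0.0267 RPKM at Arf2 and 0.0209 RPKM at Rab7. Without S1, which leaves 2 vehicle libraries, the count in both directions was 26 (35.6%, beside 23.8% of all tested regions) in place of 16 (21.9%, beside 13%). The fitted difference was above 0 in 44 members (60.3%, beside 50.0%). All 71 TSS members passed the filter, and of these 42 were above 0 and 29 below, with a median log2 fold change of 0.03, beside 0.00 over all TSS regions. Their fold changes ran from -0.63 to 0.41 on the log2(RPKM + 1) scale, which understates changes of weak regions. The median 95% interval of a TSS member, not adjusted for the number of regions, reached 0.24 to either side on that scale. This is 1.18-fold in RPKM + 1, and smaller differences could not be told from 0 at a typical member. Larger ones, such as 0.33 at Arf5, did not pass adjustment by limma. How the deposited values were scaled is not given in the sources used here, so differences may be relative to the other regions. A change in the share of a cell type and a change in acetylation per cell cannot be told apart.

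**Figure D2:**
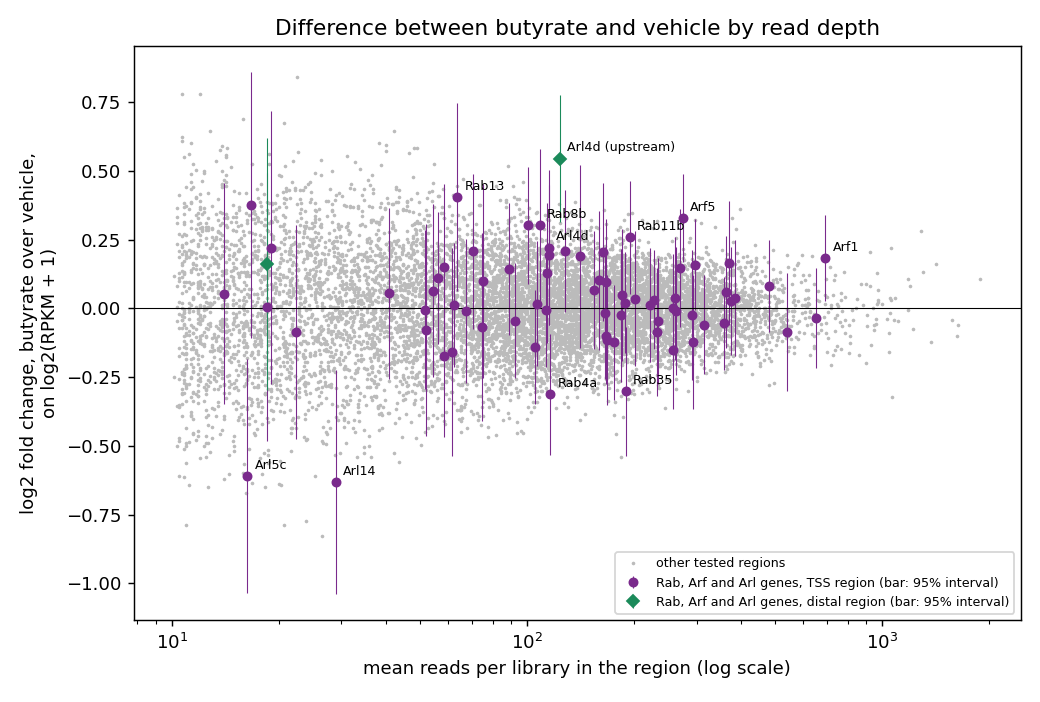
Limma log2 fold change of butyrate over vehicle against the mean reads per library (log scale) for all 10529 tested regions (grey) and the members (coloured, bars 95% intervals). The Arl4d upstream region at 0.54 lies farthest above 0 among the members, and Arl5c and Arl14, farthest below, have few reads.

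Arl4d is an Arf-like GTPase that brings Arf exchange factors to the plasma membrane. By limma, the upstream region named for it had the largest log2 fold change above 0 among the 73 members that passed the filter. In the authors' deposited table, where its log2 fold change was 0.713, weaker regions had larger ones. These were 0.850 at the distal Arf2 region, 0.808 at the distal Arl4a region and 0.722 at the weaker Rab11fip3 region. The Arl4d region lay upstream of the gene in intergenic sequence (chr11:101657713-101659275), with its centre at -7047 bp relative to the start. It had 2.78, 2.91 and 2.85 RPKM in vehicle and 4.96, 3.90 and 5.03 with butyrate. The vehicle libraries lay close together, and all 3 butyrate libraries were higher, S5 least. In reads this was 112, 81 and 92 against 172, 109 and 177. The log2 fold change was 0.54 ± 0.11 (SE) by limma (adjusted p = 0.486) and 0.71 ± 0.16 by voom (adjusted p = 0.0159). Without S1, S3, S4 or S6, the voom adjusted p was 0.14, 0.132, 0.0999 and 0.233, above 0.05. Without S2 or S5 it was 0.0499 and 0.00834.

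The same region covers the whole of Rnu2-10 (chr11:101658238-101658428, plus strand), a gene of U2 small nuclear RNA, a part of the spliceosome, which takes up 12.2% of its length. The annotation holds 2 copies nearby, Gm24950 and Gm23971, that are 100% identical to it over 191 bases and lie in no region. How reads that fit several copies were treated is not given in the sources used here, and the part of such reads in the difference was not tested. The table has 20 regions over the start of a small nuclear RNA gene, and the Arl4d upstream region was called in the authors' deposited table and by voom. The other 19 were not called, and had voom log2 fold changes of -0.12 to 0.31 with a median of 0.09. How regions were named is not given in the sources used here. The start of Rnu2-10 lies inside this region, while its centre is at -7047 bp relative to the Arl4d start. No value here ties the region to Arl4d.

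At the start of Arl4d itself (chr11:101664987-101666852) the groups overlapped. The region had 3.16, 2.37 and 2.33 RPKM in vehicle and 2.95, 3.86 and 2.86 with butyrate (log2 fold change 0.22 ± 0.13, limma adjusted p = 0.731, and 0.12 without S5). The ratio of the upstream region to this one was 0.880, 1.22 and 1.22 in vehicle and 1.68, 1.01 and 1.76 with butyrate. These ratios overlapped. The exact two-sided permutation test, run on the within-library difference of log2(RPKM + 1) between the regions, gave p = 0.3 (adjusted over 4 such comparisons, 0.4). With 3 against 3 libraries it cannot go below 0.10. So the upstream region was not shown to differ from the start in its response. The Arl4d promoter printed above, with its CRE motif, lies in the region whose groups overlapped.

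The starts of the other Arl4 genes had smaller fitted differences. Arl4a had 3.57, 4.35 and 3.85 RPKM in vehicle and 4.02, 4.20 and 3.91 with butyrate (0.04 ± 0.10). Arl4c had 2.54, 2.77 and 3.79 RPKM in vehicle and 3.89, 3.12 and 2.55 with butyrate (0.05 ± 0.14). At each of them the groups overlapped, and the difference among the Arl4 genes was not tested.

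The 3 remaining distal regions were weak. The Rab4a region, at -18008 bp, had 1.82, 1.79 and 0.817 RPKM in vehicle and 1.52, 1.26 and 2.50 with butyrate (0.16 ± 0.21). The region 21952 bp beyond the Arf2 start had 0.310, 1.12 and 0.290 RPKM in vehicle and 1.26, 0.782 and 0.888 with butyrate. It rested on 4, 10 and 3 reads against 14, 7 and 10. The region 86044 bp beyond the Arl4a start had 0.698, 0.560 and 0.387 RPKM in vehicle and 1.08, 0.670 and 1.15 with butyrate, on 9, 5 and 4 reads against 12, 6 and 13. In all 3 the groups overlapped, and the last 2 did not pass the filter. None of the 4 ratios of a distal region to its start kept the groups apart.

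**Figure D3:**
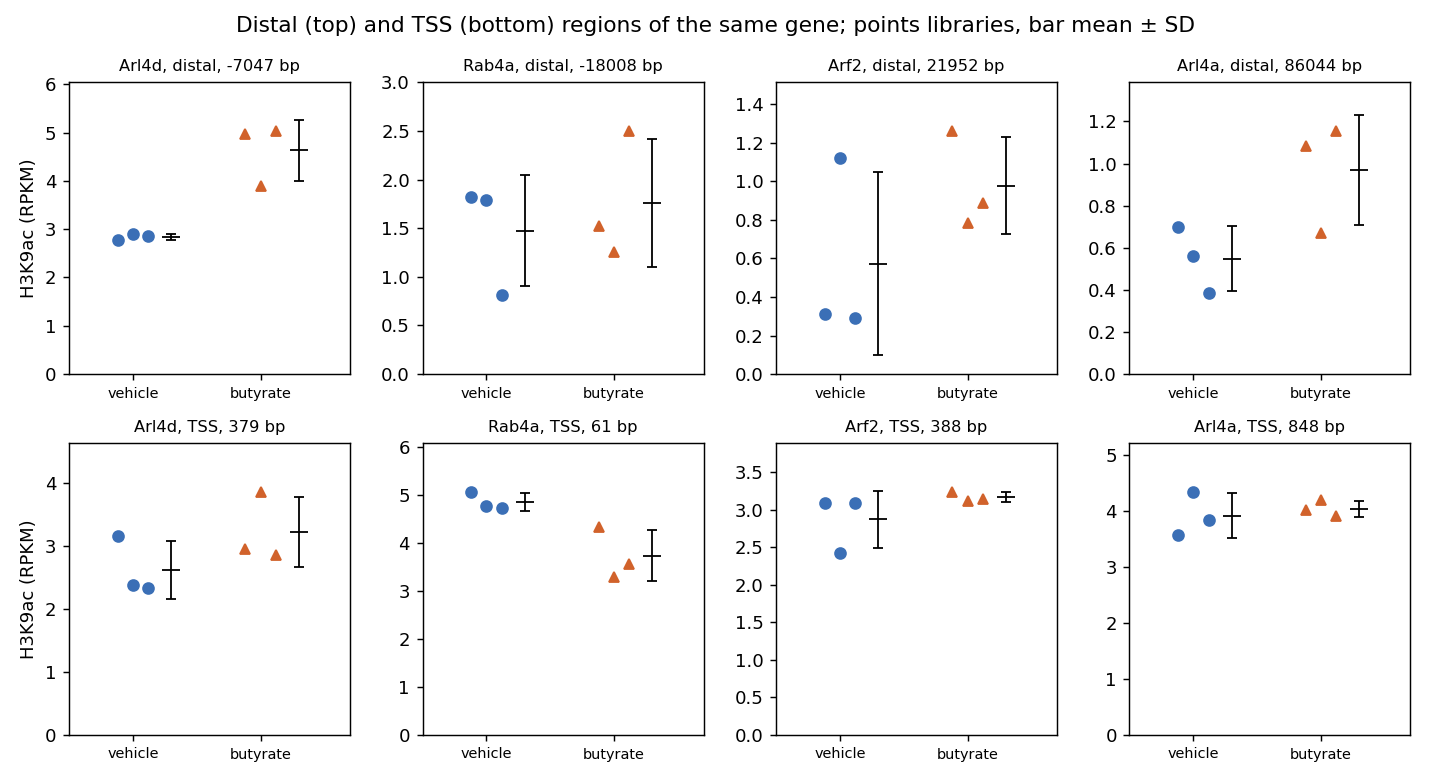
H3K9ac in RPKM (vertical axis, from 0) of the 4 distal regions (top) and the TSS region of the same gene (bottom), with each library as a point and mean ± SD beside it. The groups are apart at the Arl4d upstream region and at the Rab4a and Arf2 starts.

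Arf5, an Arf of the Golgi, had the smallest p of the TSS members. Its region (chr6:28422985-28424899, 338 bp from the start) had 5.55, 6.26 and 5.99 RPKM in vehicle and 7.51, 7.91 and 7.66 with butyrate. Every butyrate library was above every vehicle library, with a gap of 1.25 RPKM, the widest of the members. The means were 5.93 ± 0.362 and 7.69 ± 0.200 (SD, n = 3), a ratio of 1.30. The log2 fold change was 0.33 ± 0.07 by limma (adjusted p = 0.486) and 0.38 ± 0.11 by voom (adjusted p = 0.166). Leaving out 1 library gave voom adjusted p-values of 0.188 to 0.457. The exact two-sided permutation p of the group means was 0.10 at Arf5 and at the Arl4d upstream region alike, the smallest this design allows. The region also lies within Gcc1 (chr6:28416091-28428390, minus strand, GENCODE), a gene on the opposite strand, and H3K9ac does not tell the strands apart.

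The other Arf genes had smaller fitted differences. At Arf1, whose values stand above, all butyrate libraries lay above the vehicle ones by a narrow gap (log2 fold change 0.18 ± 0.07, limma adjusted p = 0.638). Arf4, which works with Arf5 in Golgi traffic, had 5.98, 5.39 and 5.55 RPKM in vehicle and 5.93, 6.10 and 6.03 with butyrate (0.08 ± 0.08). Those values overlapped. Arf2 had 3.10, 2.43 and 3.09 RPKM in vehicle and 3.24, 3.12 and 3.14 with butyrate (0.11 ± 0.11, and 0.03 without S2). Arf3, a close relative of Arf1, had 4.06, 4.76 and 3.82 RPKM in vehicle and 4.23, 3.55 and 4.37 with butyrate (-0.04 ± 0.11). Arf6 had 3.75, 4.22 and 3.84 RPKM in vehicle and 3.36, 3.62 and 3.98 with butyrate (-0.09 ± 0.10, and -0.14 to -0.04 with 1 library left out). Arf3 and Arf6 overlapped between groups, and Arf2 was apart only by the narrow gap given above.

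Close relatives were compared within each library, which removes depth. Arf5 relative to Arf4 stood at 0.928, 1.16 and 1.08 in vehicle and at 1.27, 1.30 and 1.27 with butyrate. Rab11b relative to Rab11a stood at 0.657, 0.566 and 0.582 in vehicle and at 0.825, 0.732 and 0.793 with butyrate. In both, each butyrate ratio exceeded each vehicle ratio. The exact two-sided permutation p, on the within-library difference of log2(RPKM + 1), was 0.10 for each. This is the smallest that 3 against 3 libraries can give, and it was 0.55 after adjustment over the 11 pairs compared. In the other 9 pairs the groups overlapped. Rab8b relative to Rab8a, for instance, ran from 0.622 to 1.04 in vehicle and from 0.983 to 1.33 with butyrate, and Rab1b relative to Rab1a from 0.637 to 0.874 and from 0.836 to 1.02.

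**Figure D4:**
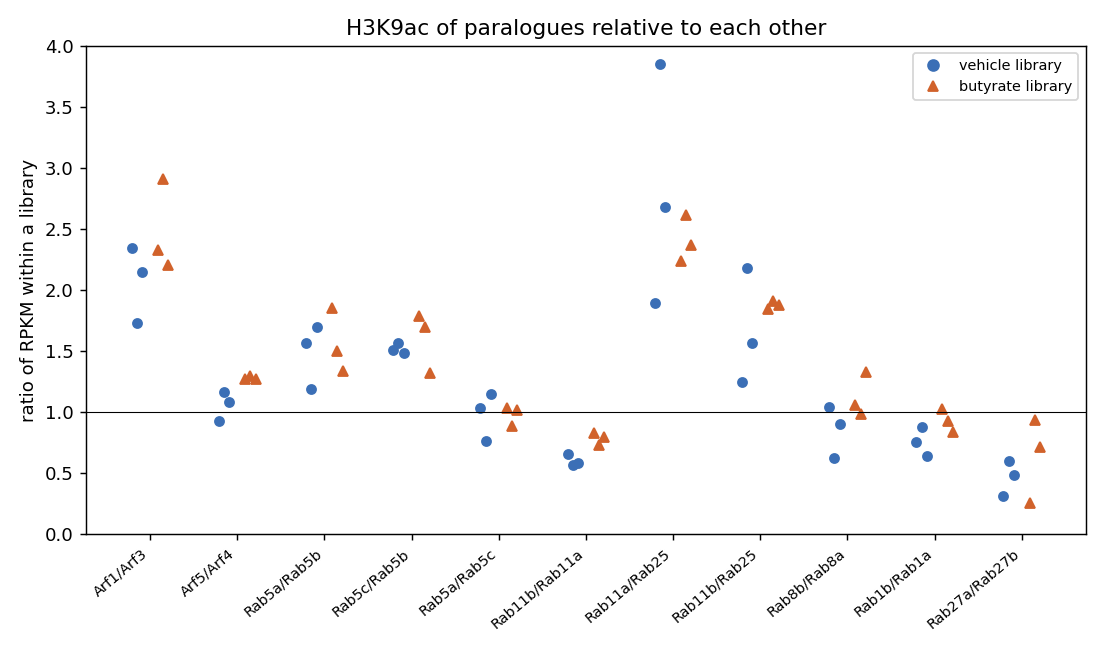
Ratio of H3K9ac (RPKM) between close relatives within each library (vertical axis), for 11 pairs, with circles for vehicle and triangles for butyrate libraries. The groups are apart at Arf5 over Arf4 and at Rab11b over Rab11a.

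Among the 11 Rab genes of recycling and apical transport, 7 had a fitted difference above 0 and 4 below, with a median log2 fold change of 0.03. Rab11b, the second Rab11 protein of recycling endosomes, had 4.43, 4.44 and 3.64 RPKM in vehicle and 5.43, 4.91 and 5.17 with butyrate. All butyrate libraries were higher (0.26 ± 0.10, limma adjusted p = 0.596). Rab13, a Rab of tight junction traffic, had 2.25, 1.19 and 2.01 RPKM in vehicle and 2.31, 2.83 and 2.92 with butyrate. The groups were apart by only 0.0608 RPKM, between S1 and S4 (0.41 ± 0.16, limma adjusted p = 0.638). Without S2, the lowest vehicle library, the log2 fold change was 0.23. Another region over an annotated Rab13 start is named for Rps27rt, and its values are not given here. Rab8b, a relative of the apical Rab8a, had 3.95, 2.84 and 2.87 RPKM in vehicle and 4.07, 3.60 and 4.92 with butyrate. Here S1 lay above S5, so the groups overlapped (0.30 ± 0.13, limma adjusted p = 0.649).

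Rab35, which acts in fast recycling from the plasma membrane, was lower in all butyrate libraries. It had 4.55, 4.58 and 4.36 RPKM in vehicle and 3.40, 2.93 and 4.13 with butyrate (-0.30 ± 0.11, limma adjusted p = 0.596). The vehicle values were close together and the butyrate values spread. Rab11a, with the values given above, had a fitted difference of -0.06 ± 0.08. Rab25, the epithelial relative of Rab11, had means of 2.64 ± 0.811 RPKM in vehicle and 2.75 ± 0.186 with butyrate. Rab8a had 3.85 ± 0.681 and 3.74 ± 0.0911. Rab17, an epithelial Rab of transcytosis, had 3.17 ± 0.294 and 3.79 ± 0.636. Rab10 had 3.27 ± 0.107 and 3.25 ± 0.412, Rab14 had 5.82 ± 0.678 and 5.93 ± 0.439, and Rab15 had 1.66 ± 0.270 and 1.79 ± 1.11. The groups of these last 6 overlapped.

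At the 6 early endosomal Rab genes, 5 fitted differences lay above 0 and 1 below (median 0.07). Rab4a, the Rab of fast endosomal recycling, was the 1 below. It had 5.07, 4.77 and 4.73 RPKM in vehicle and 4.33, 3.30 and 3.57 with butyrate, every butyrate library lower (-0.31 ± 0.10, limma adjusted p = 0.572). Its distal region, whose groups overlapped, had a fitted difference of 0.16, which was -0.05 without S3 and -0.02 without S6. The 3 Rab5 genes, whose products drive fusion of early endosomes, all had higher means with butyrate. Rab5c had 6.10, 6.00 and 5.53 RPKM in vehicle and 6.56, 6.98 and 6.50 with butyrate, without overlap (0.16 ± 0.08, limma adjusted p = 0.703). Rab5a had 6.33, 4.56 and 6.33 RPKM in vehicle and 6.77, 6.16 and 6.58 with butyrate, and S2 was low (0.17 ± 0.10, limma adjusted p = 0.738). Without S2 the fitted difference of Rab5a was 0.03. Rab5b had 3.87 ± 0.160 and 4.23 ± 0.634 RPKM. None of the 3 passed the adjusted threshold.

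The 4 late endosomal and lysosomal Rab genes had a narrow range of fitted differences, from -0.07 to 0.04. Rab7, the Rab of late endosome fusion, had 5.51, 5.38 and 5.28 RPKM in vehicle and 5.07, 5.25 and 5.12 with butyrate, all lower by a narrow gap (-0.05 ± 0.08, limma adjusted p = 0.892). Rab24, with the CLEAR core, had 5.32 ± 0.206 and 5.52 ± 0.933 RPKM, and Rab12 had 4.17 ± 0.297 and 4.15 ± 0.284. Rab9, of transport from endosomes to the Golgi, had 3.72 ± 0.603 and 3.57 ± 1.05. These 3 overlapped between groups. Of the other genes with the CLEAR core, Rab21 had 4.41 ± 0.266 and 4.46 ± 0.449 RPKM and Arl2 had 3.90 ± 0.215 and 3.75 ± 0.259.

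At the 10 Rab genes of the ER and Golgi, 7 fitted differences lay above 0 and 3 below, with a median of 0.08 and none at an unadjusted p under 0.05. Rab1b, of ER to Golgi transport, had the smallest p in the group (3.80 ± 0.508 against 4.53 ± 0.267 RPKM, log2 fold change 0.21 ± 0.10, limma adjusted p = 0.703). Rab33b, a Golgi Rab with a role in autophagy, had 4.38, 3.71 and 4.06 RPKM in vehicle and 3.57, 3.56 and 3.59 with butyrate. All butyrate libraries were lower and nearly equal (-0.14 ± 0.10, limma adjusted p = 0.760, and -0.09 without S1). Rab1a had 5.04 ± 0.212 and 4.91 ± 0.251 RPKM, and Rab2a, also of ER to Golgi transport, had 5.69 ± 0.475 and 5.83 ± 0.261. The remaining 6 of the group (Rab2b, Rab6b, Rab18, Rab19, Rab30 and Rab43) had group means between 2.44 and 4.49 RPKM and overlapped. Of the secretory Rab genes, Rab27b had 2.92 ± 0.739 and 2.54 ± 0.906 RPKM. Rab23, a regulator of Hedgehog signalling, Rab28 and Rab40c completed the Rab genes, with fitted differences of -0.00, 0.02 and 0.13, and overlapped as well.

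The 14 Arl genes spanned the widest range of fitted differences at the start, from -0.63 to 0.22, with 8 above 0 and 6 below. The 2 lowest were the 2 weakest Arl members. Arl14, which moves MHC class II vesicles in immune cells, had 1.65, 2.66 and 2.29 RPKM in vehicle and 1.60, 0.794 and 0.842 with butyrate. These were 36, 40 and 40 reads against 30, 12 and 16, and S4 came within 0.0511 RPKM of S1 (-0.63 ± 0.19, limma adjusted p = 0.572, and voom adjusted p = 0.200). Arl5c had 2.17, 2.91 and 1.26 RPKM in vehicle and 0.991, 1.01 and 0.977 with butyrate. With 28, 26 and 13 reads against 11, 9 and 11, its region fell below the depth used for voom (-0.61 ± 0.20, limma adjusted p = 0.572). The butyrate mean was 0.491 times the vehicle mean at Arl14 and 0.469 times at Arl5c, and neither passed adjustment.

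Arl5a and Arl5b, which act at the trans-Golgi, were denser than Arl5c. Arl5a had 3.53, 3.48 and 3.17 RPKM in vehicle and 4.25, 3.68 and 3.69 with butyrate, without overlap (0.15 ± 0.10, limma adjusted p = 0.756). Arl5b had 3.23 ± 0.0799 and 2.99 ± 0.360 RPKM. Arl8a and Arl8b, which couple lysosomes to kinesin, had 4.41 ± 0.527 against 4.56 ± 0.732 and 3.90 ± 0.108 against 3.90 ± 0.0971 RPKM. Arl1 of the trans-Golgi had 4.27 ± 0.547 and 4.51 ± 0.151, and Arl13b of cilia 4.52 ± 0.647 and 4.55 ± 0.305. Arl15 had 4.17 ± 0.375 and 3.74 ± 0.137, and Arl10 had 4.13 ± 1.43 and 3.74 ± 0.569. Apart from Arl5a, the groups of these genes overlapped.

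**Figure D5:**
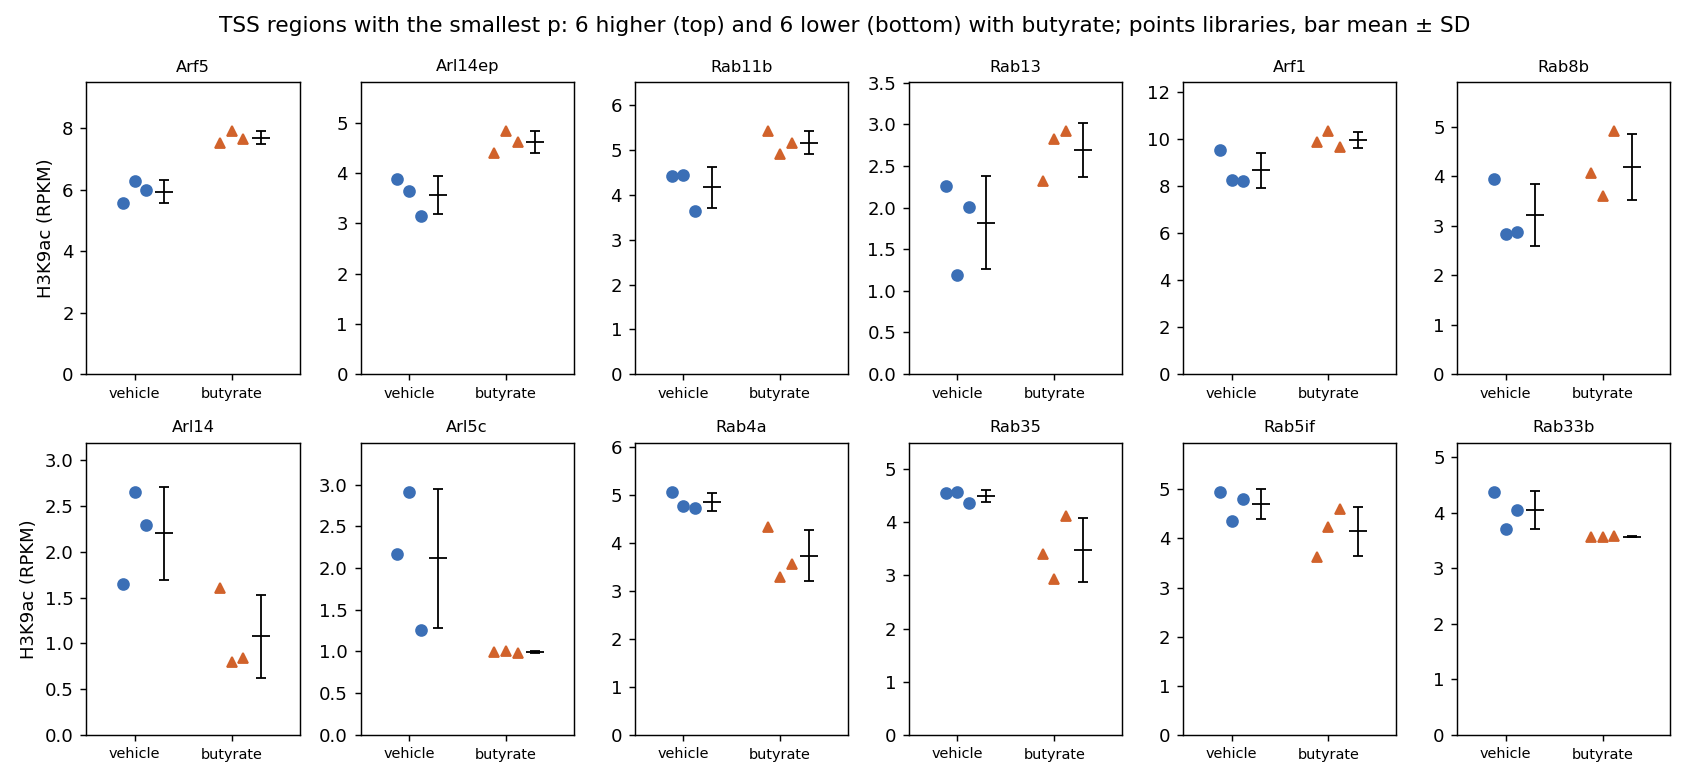
H3K9ac (RPKM, vertical axes from 0) of the TSS regions with the smallest limma p, 6 higher (top) and 6 lower (bottom) with butyrate, with each library as a point and mean ± SD beside it. The groups are apart at all of them except Rab8b and Rab5if.

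The 14 TSS regions of partner genes were split evenly, with 7 fitted differences above 0 and 7 below (median 0.00). Arl14ep, the Arl14 effector protein, had 3.89, 3.66 and 3.16 RPKM in vehicle and 4.41, 4.84 and 4.61 with butyrate. All butyrate libraries were higher (0.30 ± 0.10, limma adjusted p = 0.572), while the fitted difference of Arl14 had the other sign. Rab5if, a Rab5 interacting factor, had 4.95, 4.35 and 4.80 RPKM in vehicle and 3.61, 4.23 and 4.60 with butyrate, with overlap (-0.15 ± 0.10, limma adjusted p = 0.756, and -0.07 without S4). Rab3ip, an exchange factor of Rab8, had 2.72 ± 0.132 and 2.44 ± 0.0991 RPKM, without overlap (limma adjusted p = 0.827). Rab11fip2, a Rab11 effector that binds myosin Vb, had 5.57 ± 0.664 and 6.61 ± 1.29, and Rab11fip1 had 3.07 ± 0.254 and 2.74 ± 0.320. The second Rab11fip3 region had 2.30 ± 1.02 and 2.02 ± 0.0895. Rab3gap1 and Rab3gap2, the subunits of a Rab3 GTPase-activating protein, had 3.17 ± 0.439 against 3.14 ± 0.478 and 3.09 ± 0.287 against 3.05 ± 0.319. Arl6ip4 had 5.71 ± 0.329 and 5.26 ± 0.207, Arl2bp, which binds Arl2, had 2.95 ± 0.671 and 3.52 ± 0.282, and Arl6ip1 and Arl6ip5 of the ER membrane had fitted differences of 0.02 and 0.19. Rab10os had 3.81 ± 0.599 and 3.28 ± 0.734, with overlap.

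The proteins that load, switch and read these GTPases were taken from fixed lists of 173 gene symbols. Some symbols are aliases of the same gene. Of the symbols, 110 were measured, by a region within 5000 bp of the start that passed the filter. None was called by limma, by voom or in the authors' deposited table. By limma, 61 fitted differences lay above 0 and 49 below (median 0.01), with 3 and 4 at an unadjusted p under 0.05. These were 55.5% above 0, beside 50.0% of all tested regions, and 2.73% and 3.64% at that p, near the 3.35% and 3.91% of all. The member with the smallest p among the prenylation and GDI genes was Rabggta, a subunit of the enzyme that attaches the lipid anchor to Rab proteins (3.79 ± 0.566 against 2.57 ± 0.543 RPKM, log2 fold change -0.43 ± 0.13). Among the 22 measured Rab exchange factors, 16 lay above 0 and 6 below. Rin3, which activates Rab5-type proteins, led them with 3.41 ± 0.165 against 4.62 ± 0.627 RPKM (0.34 ± 0.10). Among the 19 Rab GTPase-activating genes, 9 lay above 0 and 10 below, led by Tbc1d2 (0.32 ± 0.11).

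On the Arf side, 6 of 9 measured exchange factors lay above 0, and Iqsec2, an Arf6 exchange factor, had the smallest p (-0.35 ± 0.13). Of the 19 Arf GTPase-activating genes, 6 lay above 0 and 13 below, led by Agap1 (3.73 ± 0.320 against 2.84 ± 0.132 RPKM, -0.30 ± 0.10). Among effectors, 18 lay above 0 and 11 below, with the smallest p at Micall2, an effector of Rab8 and Rab13 (0.19 ± 0.10). The COPI coat, recruited by Arf1, had 3 of 7 above 0, and Copb2 had the smallest p (-0.19 ± 0.11). Every one of these leading genes had an adjusted p of 0.572 or more by limma.

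All 13 epithelial marker genes had a TSS region, with summed levels of 62.5 to 67.1 RPKM in vehicle and 58.8 to 64.8 with butyrate. Of 7 leukocyte markers only Ptprc had one (0.672 to 0.930 RPKM in vehicle and 0.558 to 1.35 with butyrate), of 5 stromal markers only Vim (0.593 to 1.98 and 0.656 to 1.03), and of 3 endothelial markers none. The libraries held 1255251 to 1828591 reads in regions, and the median level over the TSS members ran from 2.23 to 2.29 on the log2(RPKM + 1) scale. The part of depth or of other cells in the results was not tested.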

How the data were processed

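H3K9ac libraries of vehicle and butyrate mice were compared from 1 deposited table. Per the file headers it holds RPKM values for 6 libraries and, made by the authors, log2 fold changes, p-values and FDR per region. The submitters' processing notes list the build mm10 and the authors' tools edgeR, HOMER, Picard and STAR, without versions or roles. How regions were called and reads counted is not given in the sources used here.

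RPKM times region length, divided by a step fitted for each library, gave whole reads for 100% of values (tolerance 0.01). The fit of the step took the smallest value above 0 in a library as 1 read. Effective library sizes from these steps were 17846924 to 25805595 reads. The main test was limma 3.58.1 (R 4.3.3, trend and robust) on log2(RPKM + 1), over 10529 regions with a mean of at least 1 RPKM, with Benjamini-Hochberg adjustment at 0.05. Voom was run on recovered reads. The 4 ratios of distal to TSS regions and 11 ratios of relatives were tested by exact permutation over libraries, as differences of log2(RPKM + 1).

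Members and lists were chosen with earlier results of these data known. Members were named with every library value if they were called by any test, had the 6 smallest p in either direction at the TSS, had the 6 highest or 3 lowest levels, were distal, or were Arf or Arl4 genes. Arl5a and Rab7 were added after their values were seen. The gene with the smallest p of each regulator list was named as well. Coordinates are those of the table in mm10. Starts came from GENCODE M21, and promoter sequences from RefSeq (GRCm38.p6). A planned comparison of protein identity was not run, and pairs of relatives were set by name.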

Additional observations from a re-analysis of the deposited data

How the results depend on the processing

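Limma called 0 members under every pseudocount, filter, scaling, threshold and left-out library tried, and voom called 1 with at least 25 mean reads and 1 on all regions, the Arl4d upstream region (log2 fold change 0.71 in both, adjusted p 0.0159 and 0.0137). Leaving out 1 library gave 0 to 1 members called by voom. Without 1 library, members whose groups did not overlap numbered 22 to 26 of 73 (30.1% to 35.6%, beside 22.7% to 24.3% of all tested regions), in place of 16, since fewer libraries have to be apart. Members at an unadjusted p under 0.05 then numbered 8 to 13 (11% to 17.8%, beside 6.46% to 7.86%), and 11 with all libraries. The TSS median stayed between 0.02 and 0.04 under every alternative. For 28 named values, 396 of 409 alternatives kept direction and side of the threshold, 2 were the voom calls of Arl4d, and 11 changed sign.

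All 11 came from leaving out 1 library at members with small fitted differences, whose values then ran from -0.0841 to 0.145 at Rab22a, from -0.123 to 0.0209 at Rab11a, from -0.0911 to 0.213 at Rab27a, from -0.0478 to 0.293 at the distal Rab4a region, from -0.0146 to 0.0985 at the Arl4a start, from -0.0995 to 0.0291 at Arf3 and from -0.0629 to 0.184 at Arl4c. The cause was not tested. The scaling behind the deposited values is not known, so a shift shared by all regions may be hidden. Regions with under about 25 reads, such as Arl5c, are limited by counting error. No paired analysis was possible because the table's columns carry library numbers S1 to S6 that match no replicate number of the labels.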
